A study of Mus musculus with 23 samples.

Results

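The dorsal hippocampus of Acss2 knockout (KO) mice was compared with that of wild-type (WT) mice taken straight from the home cage, across all genes. The comparison used 10 of the 23 RNA sequencing libraries of the series, 5 KO and 5 WT, chosen by the labelled genotype, tissue and behaviour. All mice were on a C57BL6/J background, and the KO mice carried a constitutive deletion of exons 3 to 7 of Acss2 that had been made in embryos at the single-cell stage, so every cell type lacked the gene throughout life. Age and sex are not given in the labels. Each library came from a section of dorsal hippocampus 1 mm thick, and from polyadenylated RNA. Values from WT (n = 3) and KO (n = 4) dorsal sections taken 30 min after contextual fear conditioning with 1 shock, and from freehand-dissected whole hippocampus of home cage WT (n = 2) and KO (n = 2) mice, are given beside the resting values where they bear on them. The labels do not say that replicates were separate animals, so p-values measure the spread between these libraries.

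ACSS2 is an enzyme of the cytosol and nucleus that joins acetate to coenzyme A to make acetyl-CoA. Acetyl-CoA is the donor that histone acetyltransferases use to acetylate histones, and it is the building block of fatty acids and sterols. In neurons ACSS2 has been placed in the nucleus, where it can supply acetyl-CoA near genes that neuronal activity induces, and ATP citrate lyase (Acly) is the main other source of the nuclear and cytosolic pool. The resting comparison asks what lasting loss of the enzyme does to hippocampal RNA before any learning.

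The deleted part of the gene is shown because it defines the KO. Acss2 (ENSMUSG00000027605.18) lies at chr2:155517948-155585724 on the plus strand of mm10. In the 18-exon transcript Acss2-201 of GENCODE, exons 3 to 7 are wholly coding and make up 460 of 2931 bases, or 15.7%. The deleted length leaves a remainder of 1 when divided by 3, so joining exon 2 to exon 8 would shift the reading frame. The exons read as follows on the plus strand, within chr2:155549191-155550469.
exon 3, chr2:155549191-155549282: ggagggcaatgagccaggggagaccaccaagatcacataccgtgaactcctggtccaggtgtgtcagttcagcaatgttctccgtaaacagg
exon 4, chr2:155549476-155549579: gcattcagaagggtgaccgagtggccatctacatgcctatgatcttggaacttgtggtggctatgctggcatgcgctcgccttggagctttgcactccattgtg
exon 5, chr2:155549799-155549871: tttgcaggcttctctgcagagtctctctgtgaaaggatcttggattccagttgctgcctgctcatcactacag
exon 6, chr2:155550103-155550178: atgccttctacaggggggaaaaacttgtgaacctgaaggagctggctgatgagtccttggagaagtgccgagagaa
exon 7, chr2:155550355-155550469: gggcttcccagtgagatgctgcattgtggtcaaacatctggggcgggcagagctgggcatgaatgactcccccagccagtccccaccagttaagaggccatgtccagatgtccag

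Acss2 RNA separated the genotypes in every library. The WT libraries held 57.6, 64.7, 71.3, 66.9 and 65.6 CPM (counts scaled to library size) in replicates 1 to 5, and the KO libraries held 4.17, 4.55, 3.87, 4.89 and 5.85 CPM. The lowest WT library stood far above the highest KO library. Acss2 fell by 3.93 ± 0.10 on the log2 scale, a 15.3-fold decrease (edgeR quasi-likelihood test, adjusted p = 6.12e-14 over all genes). The value after ± is the standard error for every log2 difference given here. Between 70 and 93 reads of the gene were left per KO library. Counts cover the whole gene, so reads of exons that were kept are included, and the table holds no counts per exon. Acss2 also overlaps Acss2os, Ggt7 and Gss, which lie on the other strand, and the library kit does not mark strand.

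**Figure D1:**
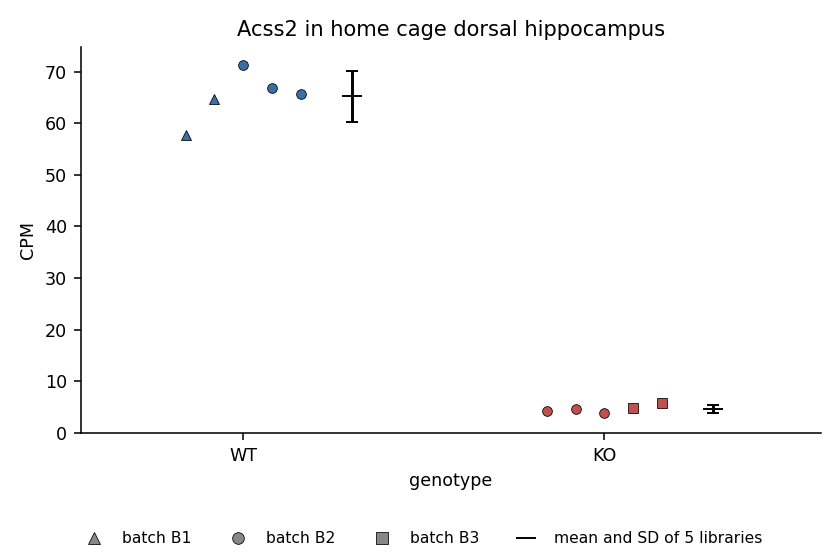
Acss2 level in CPM (y axis) by genotype (x axis) in the 10 home cage libraries of dorsal hippocampus, 1 point per library with its batch as the marker, and bars for the mean and SD of 5. The WT libraries lie between 57.6 and 71.3 CPM and the KO libraries between 3.87 and 5.85 CPM.

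Batch and library differences touch every other result. WT 1 and 2 were labelled batch B1, WT 3 to 5 and KO 1 to 3 batch B2, and KO 4 and 5 batch B3, so only B2 holds both genotypes at rest. The B1 libraries had 7790467 and 8840822 counts, against 14054430 to 23412644 in the other 8. The fit used all 17 dorsal libraries with batch as a term, in which the fear-conditioned libraries link B1 and B3, and B2 alone gave 3 against 3 libraries. Markers of the labelled tissue were present: summed over their members, CA1 pyramidal markers ran from 664 to 1389 CPM and dentate granule markers from 697 to 1479 CPM over the 10 libraries. Choroid plexus markers summed to 297 to 662 CPM, ependymal markers to 37.0 to 161 CPM and thalamus markers to 153 to 260 CPM, with the ranges of the genotypes overlapping for each.

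Transcript length moved with genotype. Lengths of the longest GENCODE transcript were found for 99.1% of the genes tested. Genes were split by length into 5 bins of equal size. In the shortest bin the median log2 difference of KO minus WT was 0.18 and 79.4% of genes were above 0, and in the longest bin the median was -0.16 and 13.9% were above 0. A score per library, the median log2 level of the shortest bin minus that of the longest bin relative to the mean of the 10 libraries, was -0.37, -0.11, -0.28, -0.08 and 0.06 in WT 1 to 5. In KO 1 to 5 it was 0.48, 0.22, -0.24, 0.22 and 0.08. KO 3 alone of the KO libraries lay within the WT range. In whole hippocampus, a separate experiment, the medians ran the other way, from -0.04 in the shortest bin to 0.03 in the longest. In the dorsal libraries taken after fear conditioning the KO minus WT medians ran from 0.41 in the shortest bin to -0.28 in the longest, the same way as at rest. No measure of RNA integrity is in the labels, and the part of RNA quality or library preparation in the trend was not tested.

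**Figure D2:**
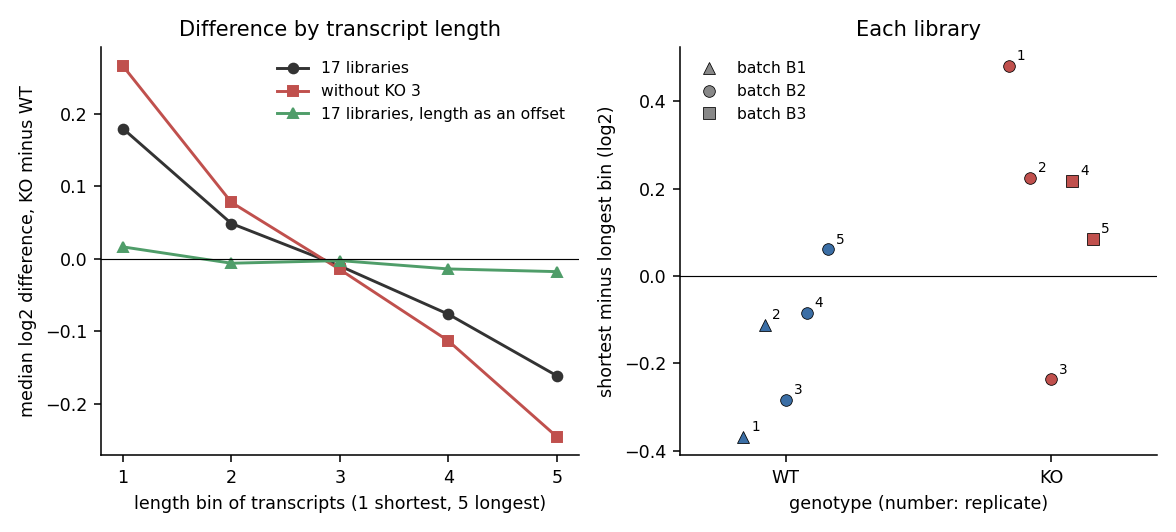
Left, median log2 difference of KO minus WT (y axis) by bin of transcript length (x axis) in the fit to 17 libraries, without KO 3, and with length as an offset. Right, the score of the shortest minus the longest bin (log2, y axis) for each home cage library by genotype. The medians run from 0.18 to -0.16 over the 5 bins, and KO 3 at -0.24 lies among the WT libraries.

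Acss2 was the only gene that passed at rest. Of 14808 genes tested, 1 passed an adjusted p of 0.05, or 0.00675%. At an unadjusted p of 0.05, 912 genes were higher in KO (6.16%) and 762 lower (5.15%). The 5 KO values lay above all 5 WT values for 253 genes (1.71%) and below them for 205 genes (1.38%). Over all genes 46.5% lay above 0. Apart from Acss2, 63 genes had an absolute log2 difference above 1. The 95% confidence interval of the log2 difference lay within 1 of 0 for 91.3% of genes, and its median half-width was 0.28, so for most genes a change of 1 on the log2 scale lay outside the interval and smaller changes may not be detectable with these libraries. B2 alone called Acss2 and no other gene, with 649 of 14584 genes at an unadjusted p of 0.05.

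Leaving out 1 library changed this count. Without KO 3, 326 genes were called higher (2.21%) and 259 lower (1.75%) of 14776. Of these, 239 of the 326 higher genes were in the shortest length bin and 187 of the 259 lower genes in the longest. A smooth trend on transcript length was then taken out of each library as an offset. The same 16 libraries then gave Acss2 alone (1 gene, 0.00677%). In this edgeR fit 2392 of 14776 genes had an unadjusted p under 0.05, against 4018 without the offset and 1674 with all 17 libraries and no offset. Transcript length moved with genotype, so the offset also takes out any genotype difference that follows length. Whether the calls lost with the offset reflected genotype was not tested. With the offset and all 17 libraries Acss2 again was the only call, at a log2 difference of -3.92.

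**Figure D3:**
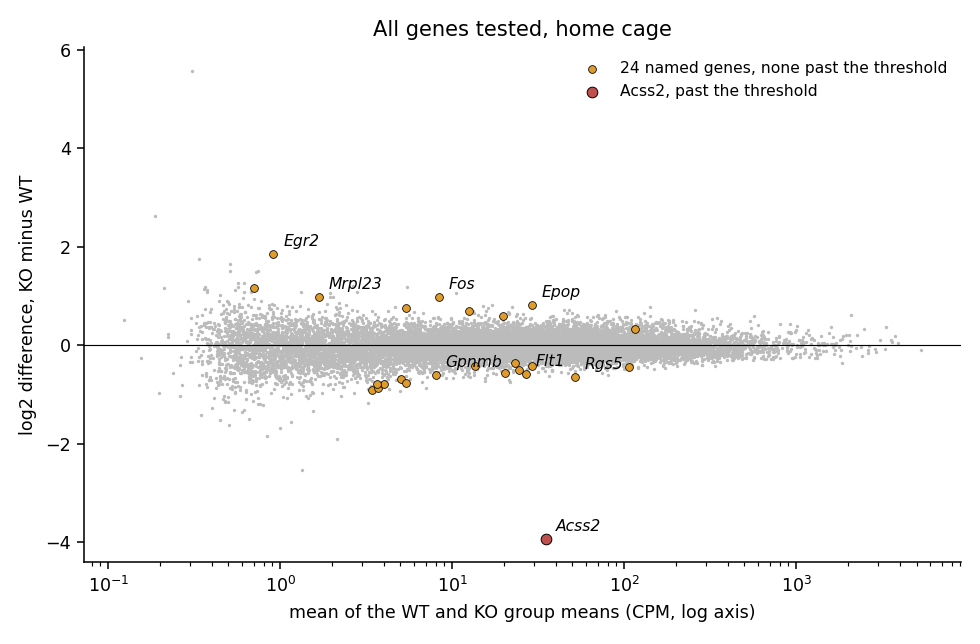
Log2 difference of KO minus WT (y axis) against the mean of the WT and KO group means in CPM (x axis, log scale) for the genes tested, with Acss2 and the 24 genes of smallest p marked. Acss2 at -3.93 is the one gene past the threshold, and the 24 genes have absolute differences of 0.34 to 1.86.

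Among enzymes that make, move or use acetyl-CoA, Acss2 alone passed. Of the 32 genes listed, 19 of 32 lay above 0 and the median log2 difference was 0.04, against -0.02 over all genes. Acss1, the mitochondrial acetyl-CoA synthetase, stood at 31, 37.3, 34, 32.5 and 31.9 CPM in WT and 29.1, 44.5, 35.9, 45.7 and 35.2 CPM in KO. The groups overlapped, and its log2 difference of 0.23 ± 0.12 had a 95% interval of -0.02 to 0.48, which leaves out a doubling. Acly, the cytosolic and nuclear ATP citrate lyase, stood at 171, 156, 183, 169 and 163 CPM in WT and 146, 160, 181, 154 and 165 CPM in KO. Its log2 difference was -0.12 ± 0.08, with an interval of -0.29 to 0.06. Slc16a1, which carries lactate, ketone bodies and acetate across membranes, gave 0.08 ± 0.11 with an interval of -0.15 to 0.31. None of the 3 passed (edgeR adjusted p = 0.449, 0.541 and 0.744). The other members with an unadjusted p under 0.05 were the acyl-CoA thioesterases Acot7, at 0.24 ± 0.11, and Acot12, at -0.95 ± 0.44, neither of which passed.

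The biosynthetic pathways fed by acetyl-CoA did not pass either. Sterol synthesis and uptake genes had a median of 0.01 over 27 members, 14 of them above 0. At an unadjusted p of 0.05, 2 lay above 0, against 6.16% of all genes. Those 2 were Pmvk, phosphomevalonate kinase, at 0.36 ± 0.14, and Fdps, farnesyl diphosphate synthase, at 0.28 ± 0.13. In both genes KO 1 was the highest library, at 59.4 CPM for Pmvk and 34.3 CPM for Fdps. The fatty acid list had a median of -0.07, with 4 of 23 members above 0, against 46.5% of all genes. Acsl1, a long-chain acyl-CoA synthetase, gave -0.24 ± 0.09 and Acsl4, a related enzyme, -0.19 ± 0.09, and 0 members of either list passed.

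The enzymes that use nuclear acetyl-CoA lay mostly below 0 and none passed. Of 20 histone acetyltransferase genes, 2 lay above 0, against 46.5% of all genes and 13.9% of genes in the longest length bin. Their median was -0.15. At an unadjusted p of 0.05, 1 was lower, against 5.15% of all genes, and 0 passed. With transcript length as an offset the median was -0.06. Crebbp, which encodes the coactivator CBP, stood at 52.6, 38.4, 43.5, 39 and 37.6 CPM in WT and 31.2, 33.6, 40.9, 19.3 and 23.6 CPM in KO, with KO 4 and 5 lowest and KO 3 among the WT values. Its log2 difference was -0.28 ± 0.14 and became -0.07 with the length offset. Ep300, its close relative p300, gave -0.22 ± 0.15 and -0.04 with the offset. Kat6a, a MYST family acetyltransferase, gave -0.39 ± 0.13 (edgeR adjusted p = 0.44), and -0.21 with the offset. Taf1, a subunit of the general transcription factor TFIID, gave -0.18 ± 0.09.

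Genes that remove or read the acetyl mark showed the same absence of calls. The 18 deacetylase and sirtuin genes had a median of 0.03, with Sirt3, the main mitochondrial deacetylase, at 0.22 ± 0.09 and Hdac5, a class IIa deacetylase, at 0.22 ± 0.09. Of the 28 genes whose proteins bind acetyl-lysine, 4 lay above 0, against 46.5% of all genes. Their median was -0.11, which became -0.0010 with the length offset. Brwd3, a bromodomain protein, gave -0.39 ± 0.13 and Atad2b, another, -0.29 ± 0.10, both with WT 1 and 2 (batch B1) highest. The 10 libraries overlapped for both genes.

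Rapidly induced activity genes lay mostly above 0 in KO, and none passed. Of 28 rapidly induced genes listed 27 were tested. Of these, 22 lay above 0 in KO against 46.5% of all genes, and the median log2 difference was 0.28. In the shortest length bin 79.4% of genes lay above 0, and the transcript lengths of the listed genes were not compared. At an unadjusted p of 0.05, 8 were higher and 1 lower, against 6.16% and 5.15% of all genes, and 0 passed. For 6 the 5 KO values lay above all 5 WT values, against 1.71% of all genes. The genes of this list encode transcription factors and synaptic proteins whose RNA appears within minutes of neuronal firing, and their protein products set off later waves of transcription. The median was 0.23 in B2 alone, 0.29 without KO 3 and 0.20 with the length offset. With that offset 8 were again higher and 1 lower at an unadjusted p of 0.05, against 1172 of 14808 genes in either direction. The list of slower, delayed genes had a median of 0.02 over 20 members and none at an unadjusted p of 0.05.

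Fos, the classic marker of recent neuronal activity, stood at 4.04, 5.52, 7.71, 4.31 and 3.11 CPM in WT and 9.45, 13.7, 8.79, 13.4 and 13.4 CPM in KO. All 5 KO values lay above all 5 WT values. The log2 difference was 0.99 ± 0.23, or 1.98-fold, and 1.09 in B2 alone (edgeR adjusted p = 0.44). Egr2, a zinc finger factor, had 3 to 6 reads per WT library and 14 to 31 per KO library. That was 0.337, 0.753, 0.227, 0.138 and 0.306 CPM in WT and 1.06, 1.52, 0.638, 2.17 and 1.99 CPM in KO. WT 2 lay above KO 3, and the other values did not cross. Its log2 difference was 1.86 ± 0.45, or 3.63-fold, and 2.24 in B2 alone (edgeR adjusted p = 0.44). Junb, a partner of Fos in the AP-1 dimer, stood at 32.8, 33.5, 46.2, 39.7 and 36.2 CPM in WT and 56.6, 85.6, 58.1, 69.5 and 80.5 CPM in KO, with no overlap. Its log2 difference was 0.59 ± 0.16, and Junb overlaps Prdx2 on the other strand.

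Further early genes are the nuclear receptor Nr4a1, the nuclear regulator Ier2 and the synaptic gene Arc. Nr4a1 ran from 27.9 to 36.5 CPM in WT and stood at 38.4, 82.2, 45.4, 70.1 and 85.2 CPM in KO, without overlap (0.72 ± 0.21). Ier2 ran from 3.37 to 5.92 CPM in WT and from 7.33 to 9.83 CPM in KO, also without overlap (0.50 ± 0.15). Arc, whose protein trims glutamate receptors from synapses, stood at 57.4, 75.2, 117, 68.4 and 63.9 CPM in WT and 72, 148, 123, 147 and 163 CPM in KO. Arc overlapped through WT 3 and KO 1, at 0.57 ± 0.21. Egr1 gave 0.48 ± 0.19 and Dusp6, a phosphatase that dampens ERK signalling, 0.28 ± 0.10. Jun went the other way at -0.24 ± 0.11. Fosb, Egr4, Npas4 and Dusp1 lay between 0.29 and 0.49 with an unadjusted p above 0.05.

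**Figure D4:**
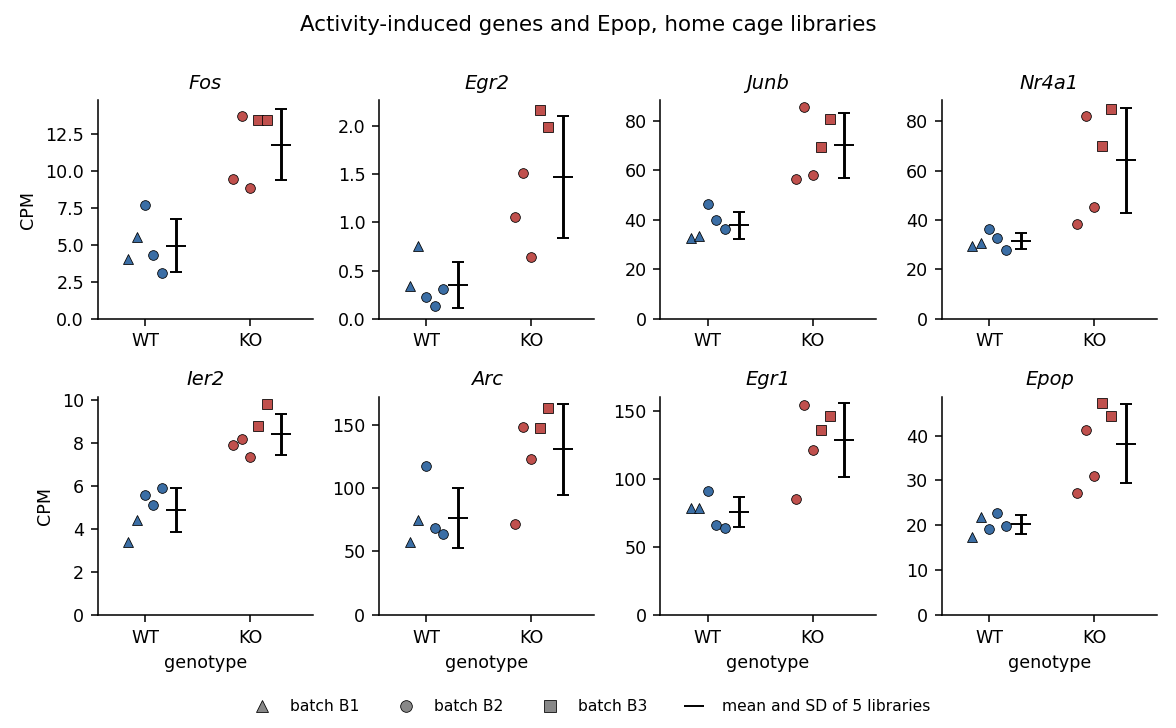
Level in CPM (y axis) of 7 activity-induced genes and Epop by genotype (x axis), 1 point per home cage library with its batch as the marker, and bars for the mean and SD of 5. Fos, Junb, Nr4a1, Ier2 and Epop do not overlap between the genotypes, and KO 1 is the lowest KO library for Nr4a1, Arc and Egr1.

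The upstream windows of Fos and Junb are shown because both genes were higher in all 5 KO libraries and both are known targets of the cAMP-responsive factor CREB. They are the 250 bases before the RefSeq start (GRCm38.p6), 5′ to 3′ on the gene's strand, with matches to TGACG or CGTCA, the core of the cAMP response element read on either strand, in capitals. Of 32851 such windows 17.8% hold a match.
Fos, chr12:85473640-85473889, plus strand: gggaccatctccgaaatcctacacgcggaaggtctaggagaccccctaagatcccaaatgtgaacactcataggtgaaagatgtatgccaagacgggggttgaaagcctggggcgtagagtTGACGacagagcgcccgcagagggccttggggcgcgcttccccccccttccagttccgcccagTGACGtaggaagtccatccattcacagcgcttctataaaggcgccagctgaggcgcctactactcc
Junb, chr8:84978749-84978998, minus strand: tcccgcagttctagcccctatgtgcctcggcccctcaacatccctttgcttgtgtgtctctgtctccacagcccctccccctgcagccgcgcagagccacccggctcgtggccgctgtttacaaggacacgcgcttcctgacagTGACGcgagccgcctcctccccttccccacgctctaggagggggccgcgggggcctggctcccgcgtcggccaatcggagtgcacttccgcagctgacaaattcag
The Fos window holds 2 matches and the Junb window 1. Neither window holds a CArG box, the serum response factor motif, which 1.47% of windows hold. Bases further upstream than these 250 were not searched, so a box lying there would be missed. A match is a description of these letters and does not show that a factor binds.

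Marker lists of the hippocampal fields were also examined. Of 12 CA1 pyramidal markers listed 11 were tested, 10 lay above 0 and the median was 0.36, against 0.62 in B2 alone. At an unadjusted p of 0.05, 4 were higher, against 6.16% of all genes, and 0 passed. Summed CA1 markers stood at 907, 678, 664, 730 and 737 CPM in WT and 713, 1319, 1080, 1389 and 1367 CPM in KO. KO 1, where Arc, Egr1, Nr4a1 and Junb were lowest among the KO libraries, lay within the WT range. Fos, Egr2 and Ier2 were instead lowest in KO 3, Fos at 8.79 CPM against 9.45 CPM in KO 1. In KO 1 Fos, Junb, Nr4a1 and Ier2 still lay above every WT library. The summed rapidly induced genes stood at 844, 794, 957, 897 and 841 CPM in WT and 931, 1269, 1044, 1190 and 1285 CPM in KO, so among the KO libraries both sums were lowest in KO 1. The part of CA1 content in the activity-induced values was not tested. Fewer cells of a type and less RNA per cell cannot be told apart in tissue sections.

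Pou3f1, a CA1-enriched transcription factor, stood at 64.2, 53.2, 43.9, 51.1 and 50.3 CPM in WT and 53.2, 107, 81.4, 105 and 102 CPM in KO (0.55 ± 0.18), and Mpped1 gave 0.46 ± 0.19. Dentate granule markers lay mostly below 0: 1 of 14 lay above 0, against 46.5% of all genes, and the median was -0.29. At an unadjusted p of 0.05, 5 were lower, against 5.15% of all genes, and 0 passed. Prox1, the transcription factor that specifies granule cells, stood at 202, 121, 123, 133 and 127 CPM in WT and 75.3, 95.2, 117, 106 and 97.7 CPM in KO, without overlap (-0.44 ± 0.17), and Dsp, desmoplakin, gave -0.61 ± 0.21. The CA2 and CA3 list had a median of -0.19 with 3 of 15 above 0. Its members Cacng5 and Grik4 gave -0.45 ± 0.18 and -0.23 ± 0.11.

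Vascular markers depended on batch. All 12 endothelial markers lay below 0, with a median of -0.40. At an unadjusted p of 0.05, 6 were lower, against 5.15% of all genes, and 0 passed. Their median was -0.58 in B2 alone and 0.02 over the 10 libraries without a batch term. Summed, they stood at 168 to 189 CPM in the B2 WT libraries and 120 to 138 CPM in the B2 KO libraries, against 121 and 135 CPM in WT of B1 and 202 and 277 CPM in KO of B3. Flt1, a VEGF receptor of endothelium, stood at 25.6, 20, 33.2, 29.4 and 25.2 CPM in WT and 16.2, 20.5, 21.3, 31.6 and 45.6 CPM in KO. Its log2 difference was -0.58 ± 0.14 with batch as a term and 0.02 without it (edgeR adjusted p = 0.44 and 0.971). Pecam1 behaved alike, at -0.61 ± 0.16 and 0.01. Pericyte and smooth muscle markers had a median of -0.21 over 13 of 14 members tested, and -0.06 without the batch term. Rgs5, a pericyte gene, gave -0.65 ± 0.15 with batch as a term and -0.23 without it. Notch3, a receptor of mural cells, gave -0.89 ± 0.29 and -0.44.

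**Figure D5:**
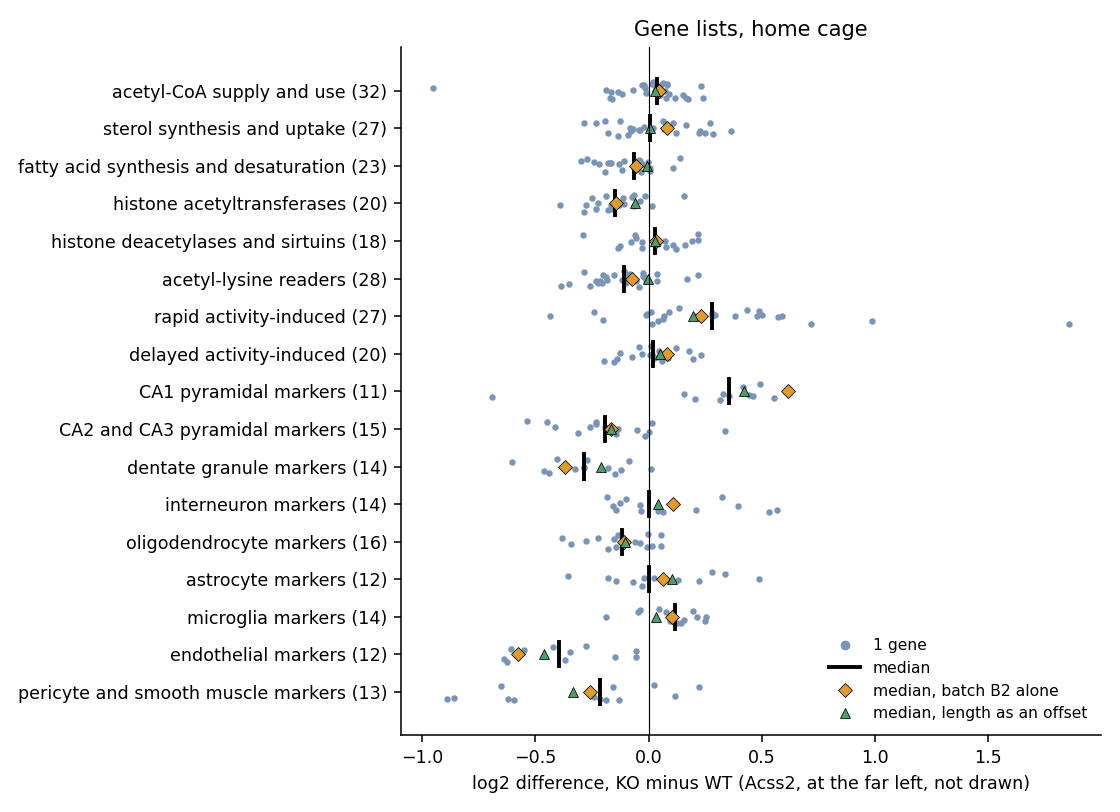
Log2 difference of KO minus WT (x axis) of the members of 17 gene lists (y axis, number of members tested in brackets), with the list median as a bar, the median in batch B2 alone as a diamond and the median with length as an offset as a triangle. Rapidly induced genes (median 0.28) and CA1 markers (0.36) lie to the right of 0, and dentate (-0.29) and endothelial (-0.40) markers to the left.

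None of the members of the glial and interneuron lists passed. Astrocyte markers had a median of 0.00 over 12 members, with 6 above 0, 6 below 0 and the lowest at -0.35. At an unadjusted p of 0.05, 3 were higher and 1 lower, against 6.16% and 5.15% of all genes. The 2 of smallest p were S100b at 0.49 ± 0.17 and Aldh1l1 at 0.34 ± 0.12. Microglia markers had a median of 0.12 with 11 of 14 above 0, and Tmem119 and Gpr34 gave 0.16 ± 0.10 and 0.25 ± 0.16. Oligodendrocyte markers had a median of -0.12 with 13 of 16 members below 0, and their sums overlapped widely, at 7443 to 14826 CPM in WT and 7585 to 12793 CPM in KO. Interneuron markers had a median of 0.00, with 7 of 14 members below 0 and the lowest at -0.18. Among them Sst, somatostatin, stood at 92.5, 146, 90.4, 137 and 122 CPM in WT and 165, 263, 165, 232 and 231 CPM in KO, without overlap (0.53 ± 0.21, and 0.29 with the length offset), and Pvalb, parvalbumin, gave 0.57 ± 0.22.

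The 24 genes with the smallest p after Acss2, chosen without predicted and clone-named genes, were 9 higher and 15 lower, with adjusted p from 0.141 to 0.44. For 7 of the higher and 7 of the lower genes the 5 KO and 5 WT values did not overlap, against 1.71% and 1.38% of all genes. All 24 had the same sign in B2 alone, and all 24 passed without KO 3. The 24 were picked by their p in a fit that holds these same libraries, so these counts are not separate support. None of the 24 passed without KO 3 once transcript length was an offset, with edgeR adjusted p from 0.0569 (Prdm8) to 0.238 (Chchd10). In whole hippocampus 8 of the 24 had the same sign and 0 passed, against 42.1% of 14700 genes with the same sign.

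Epop, which encodes a partner of the Polycomb complex PRC2 and of elongins, had the smallest p of the 24. It lies at chr11:97627389-97629702 on the minus strand. WT libraries stood at 17.4, 21.8, 19.1, 22.6 and 19.9 CPM and KO libraries at 27.1, 41.3, 31, 47.2 and 44.4 CPM. Every KO library lay above every WT library. The log2 difference was 0.82 ± 0.14, or 1.77-fold, with an edgeR adjusted p of 0.141. DESeq2 on the same libraries called Epop and Acss2 and no other gene (DESeq2 adjusted p = 0.000338 for Epop). Epop passed in 4 of 30 alternatives, with adjusted p from 0.000338 to 0.817.

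Among other regulators of transcription and chromatin, Mysm1, a histone H2A deubiquitinase, ran from 28.3 to 43.6 CPM in WT and from 20.7 to 26.6 CPM in KO. The groups did not overlap (-0.42 ± 0.10), and WT 1 and 2 of batch B1 were highest. Prdm8, a PR domain factor of cortical neurons, gave -0.45 ± 0.12 with overlap. Slfn5, a Schlafen family gene that interferon induces, gave -0.91 ± 0.20, and the gene overlaps Slfn5os on the other strand.

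The other lower genes included signalling and cell surface genes. Gpnmb, a transmembrane glycoprotein of phagocytes, stood at 9.66, 9.79, 8.96, 8.54 and 11.3 CPM in WT and 5.58, 6.12, 6.97, 7.12 and 6.11 CPM in KO, without overlap (-0.60 ± 0.13). Jag1, a Notch ligand, gave -0.68 ± 0.15, and Adamts1, a secreted metalloprotease, -0.51 ± 0.12. Vav3, also listed among thalamus markers, gave -0.42 ± 0.11 and did not overlap. Plcxd3 gave -0.77 ± 0.18, Clcn5, a chloride-proton exchanger of endosomes, -0.78 ± 0.20, and Carmil1, a regulator of actin capping, -0.37 ± 0.09, each without overlap. N4bp2 gave -0.78 ± 0.20, also without overlap, and B1 held its highest WT values of 7.86 and 8.41 CPM against 3.06 to 4.48 CPM in B2. Rtl3, a gene derived from a retrotransposon, gave -0.87 ± 0.20. Fnip2, a folliculin partner, gave -0.56 ± 0.15.

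The other higher genes had varied roles, and none passed. Chchd10, a protein of the mitochondrial intermembrane space, stood at 69.2, 75.9, 101, 114 and 103 CPM in WT and 142, 135, 117, 151 and 140 CPM in KO. It did not overlap (0.34 ± 0.09). Its log2 difference was 0.19 with the length offset and 0.58 without the batch term. It gave -0.27 ± 0.07 in whole hippocampus, and the gene overlaps Mmp11 and Gm867 on the other strand. Mrpl23, a protein of the large mitochondrial ribosome subunit, ran from 0.899 to 1.51 CPM in WT and 1.82 to 2.65 CPM in KO (0.99 ± 0.23). Cbr3, a carbonyl reductase, gave 0.69 ± 0.18. Apoa2, an apolipoprotein, had 4 to 9 reads per WT library and 13 to 27 per KO library (1.17 ± 0.30), and was also above 0 in whole hippocampus at 1.51 ± 0.29. Inka1, an inhibitor of the kinase PAK4, gave 0.77 ± 0.18 and Ifitm10 0.60 ± 0.14, both without overlap.

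Genes near Acss2 were listed because the deletion itself, or variants carried along with it, can alter neighbours. Within 500 kb of its start 19 other genes were tested, 10 lay above 0, the median was 0.05 and the range was -0.30 to 0.36. Of these 3 had an unadjusted p under 0.05, against 1674 of all 14808 genes tested, and 0 passed. The 3 were Map1lc3a, an autophagosome protein, at 0.36 ± 0.10, BC029722 at 0.23 ± 0.08 and Ergic3 at 0.18 ± 0.08.

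The resting difference was set against the difference after fear conditioning with a test of the interaction. This called 71 of 14808 genes (0.479%). The 24 genes were picked by their p at rest, and the interaction subtracts that same resting difference. Calls among the 24 are therefore not separate support. Epop and Egr2 were the 2 of the 24 genes called, at -0.996 ± 0.20 and -2.75 ± 0.53 (KO minus WT after fear, minus the same at rest; edgeR adjusted p = 0.0437 and 0.0406). Of the early genes, Junb, Egr1 and Dusp6 were called at -1.15 ± 0.22, -1.38 ± 0.27 and -0.86 ± 0.15, and Fos at -1.26 ± 0.32 was not (edgeR adjusted p = 0.0661). These calls were unstable: 0 genes were called with a replicate block, with limma-voom or without any 1 of 10 of the libraries, and 907 were called by DESeq2. CA1 markers, with a median log2 difference of 0.36 at rest, had one of -1.07 after fear, and their part in these interaction values was not tested.

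The levels show how these genes lay. Fos, at 3.11 to 7.71 CPM in resting WT, stood at 18.3, 33.3 and 23.4 CPM in WT after fear, and KO went from 8.79 to 13.7 CPM at rest to 18.4, 21.2, 34.7 and 36.5 CPM. Resting KO values thus lay between resting WT and fear-conditioned WT, and the groups after fear overlapped. Epop, at 17.4 to 22.6 CPM in resting WT, stood at 36.9, 48.9 and 44.8 CPM in WT after fear and 37.6, 45.9, 43.5 and 38.5 CPM in KO after fear, so resting WT was the group that stood apart. Egr2 stood at 4.9, 12.1 and 12 CPM in WT and 3.42, 6.38, 7.42 and 10.5 CPM in KO after fear, above every resting library. Fear-conditioned WT libraries were all of B1, and KO fear 1 and 2 of B1 held the lower Egr2, Junb and Egr1 values of that group. The same 2 libraries had summed CA1 markers of 693 and 738 CPM, against 1367 and 1452 CPM in KO fear 3 and 4 and 1022 to 1532 CPM in WT after fear.

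In whole hippocampus the early genes lay below 0 in KO. In KO minus WT whole hippocampus Fos gave a log2 difference of -0.51, Egr2 -0.50, Junb -0.41, Nr4a1 -0.35 and Arc -0.44, the rapidly induced list had a median of -0.18, and Epop gave 0.04. Of 15453 genes 6 passed there (0.0388%). The Y-linked gene Kdm5d stood at 0 CPM in both WT libraries and at 32.6 and 34.4 CPM in both KO libraries of whole hippocampus, so genotype and sex cannot be told apart in that experiment. All 10 resting dorsal libraries expressed Kdm5d, at 15.4 to 32.5 CPM. Whole and dorsal hippocampus were sequenced and normalized separately, and the difference between these comparisons was not tested.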

How the data were processed

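Gene counts of the 17 dorsal libraries, deposited by the authors as raw counts for 24985 symbols, were used with the matching whole hippocampus table. Per the submitters' processing notes the tools were STAR, SAMtools 1.1, HTSeq 0.9.1, DESeq2 and limma on mm10, with no role given; no source names the annotation. Of the symbols, 26 had become dates, and GENCODE M21 held 98.1%. Per the labels' protocols libraries were made with a kit that does not mark strand. Pairs of libraries within a genotype differed beyond counting noise (chi-square per gene 5.97 to 61.3), and each library is 1 replicate. The authors' normalized values were not used.

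In R 4.3.3, edgeR 4.0.16 fitted group and batch over 17 libraries (11 residual degrees of freedom) after TMM scaling and filterByExpr (minimum count 10, total 15), with Benjamini-Hochberg adjustment over 14808 genes at 0.05, two-sided. The standard error is the log2 difference over the square root of F. The test was tested on simulated data, which held no batch effect, length trend or outlying library. Alternatives were DESeq2 1.42.0, limma-voom 3.58.1, other scalings and filters, subsets of libraries, and a transcript-length offset and the removal of B1, both added after seeing the data.

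Named genes were Acss2, the 24 smallest p without clone names, up to 2 per list where none passed, the 3 smallest p near Acss2, and genes of the acetyl-CoA, acetyltransferase and rapid lists by role. The 33 gene lists and the comparison were chosen with earlier results of these data known.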

Additional observations from a re-analysis of the deposited data

Results flagged for a closer look

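Fnip2 in KO home cage 1 stood at 11.7 CPM, apart from the next KO library at 17.3 CPM, and Rtl3 in KO home cage 5 stood at 4.43 CPM, above the next KO library at 2.96 CPM. These were 2 of 50 groups of 5 values examined for Acss2 and the 24 genes, and chance alone flags about 1 in 20 groups.

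The genotype difference after fear minus that at rest was -0.996 on the log2 scale for Epop, -2.75 for Egr2, -1.15 for Junb, -1.38 for Egr1 and -0.86 for Dusp6, each past the edgeR threshold for the interaction. Of 25 alternatives, Epop, Egr2, Junb and Egr1 passed in 10 each and Dusp6 in 11, and the sign was negative in each of them. At rest 0 of these 5 genes passed, so the calls rest on the difference between the 2 conditions. Epop and Egr2 were picked by their p at rest, and the interaction subtracts that resting difference, so their calls are not separate support.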

How the results depend on the processing

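Acss2 passed in all 30 alternatives, at log2 differences of -4.01 to -3.80. Across the replicates left out in turn, the count of genes changed at rest ran from 1 to 585, of genes higher from 0 to 326 and of genes lower from 1 to 259, with KO home cage 3 giving the upper end and Epop the 1 further call without KO home cage 1. No filter on low counts and DESeq2 each gave 2 genes changed and 1 higher, which was Epop. The replicate numbers do not pair the libraries: deviations of same-numbered libraries correlated at -0.31, -0.26, 0.31, -0.18 and -0.28. With the replicate block, Acss2 was the 1 gene changed, and 353 genes had an unadjusted p under 0.05 against 1674 without it.

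The interaction count of 71 became 130 with DESeq2 size factors, 400 with no filter on low counts, 125 with a stricter filter, 907 with DESeq2, 0 with limma-voom, 0 with the replicate block and 462 with the length offset. It ran from 0 to 1007 as each library was left out in turn, so it is not a firm count.

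The other 103 named genes kept their sign in 3069 of 3077 refits of the resting difference, and 62 of them passed in none. List medians moved by more than the spread between libraries in 23 refits and by less in 967. The 8 reversals were Flt1 (0.0206) and Pecam1 (0.0118) without a batch term, Calb2 (-0.0262) with the replicate block, Alas2 (0.135 without WT home cage 3; lowest -0.672 as libraries were left out), Gabrb1 (0.043) with the length offset, and Gabrb1 (0.157), Taf1 (0.0011) and Tac2 (-0.0519) with the length offset and without KO home cage 3. The causes were not tested, beyond the length trend that the offset removes by construction. B1 libraries were the shallowest, which limits genes under about 1 CPM, such as Egr2 and Apoa2.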

Other observations

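Genes induced by glucocorticoids had a median log2 difference of -0.02 over 21 members, with the metallothioneins Mt1 and Mt2, which bind zinc and copper, apart from the rest. Mt1 stood at 139, 195, 174, 196 and 242 CPM in WT and 330, 398, 203, 435 and 250 CPM in KO, and Mt2 at 80.5, 115, 86.2, 91.5 and 116 CPM and 151, 251, 114, 273 and 133 CPM. KO 3 and KO 5 were near the WT values for both genes (0.72 ± 0.21 and 0.79 ± 0.23, edgeR adjusted p = 0.44). In whole hippocampus both lay below 0, at -0.30 and -0.25. Among clock genes 13 of 17 lay above 0 with a median of 0.08, and Dbp and Ciart gave 0.30 ± 0.10 and 0.42 ± 0.18.

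Glutamate receptor genes had a median of -0.16, and -0.0039 with the length offset. Of these 3 of 22 lay above 0, against 46.5% of all genes. Grm2 and Grm7 gave -0.35 ± 0.16 and -0.26 ± 0.11. Plasticity kinases and scaffolds had a median of -0.08 over 26 members, with Nrgn, neurogranin, at 0.24 ± 0.11 and Camk4 at -0.25 ± 0.11. The interferon response list lay at a median of -0.20, 3 of its 20 members being above 0. Gabra6, a GABA receptor subunit known from cerebellar granule cells, had 34 reads in KO 5, 11 in KO 1, 2 in KO 2, 1 each in WT 1 and 2 and 0 in the other 5 libraries, so its fitted difference rests on 2 libraries. None of these genes passed.

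The remaining lists had medians of 0.04 for heat shock and the unfolded protein response (25 members), -0.02 for GABA receptors (15), 0.12 for neocortex markers (13), 0.15 for habenula markers (6), -0.10 for oligodendrocyte precursor markers (12) and 0.01 for meningeal fibroblast markers (12). Of the blood cell markers 1 of 7 was tested, Alas2, the heme synthesis enzyme of red cells, at -0.42 ± 0.42. Of 6 sex-linked genes 1 lay above 0, and the demethylases Kdm5d and Kdm6a gave -0.32 ± 0.11 and -0.33 ± 0.11. None passed, and Gabrb1, a GABA receptor subunit at -0.21 ± 0.08, lay at 0.043 with the length offset.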
